A study of Mus musculus with 4 samples.

Results

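Colonies that mouse mammary basal cells had formed in 3D Matrigel without treatment were compared with basal cells of untreated mice that were lysed directly after sorting. The members are 2 of the 4 RNA-seq libraries of the series, the untreated library of each kind, chosen by their labels, and each side of the comparison holds 1 library. The study asked how signals of the sympathetic nervous system act on mammary gland growth and on its stem cells. The other libraries came from basal cells sorted from mice given 6-OHDA (6-hydroxydopamine), a neurotoxin that destroys sympathetic nerve endings, and from colonies grown with the adrenergic agonists salbutamol and phenylephrine (SP). All 4 libraries are labelled as mouse primary mammary basal cells of genotype WT, the 2 compared here carry the treatment label none, and strain, age and the number of mice behind a library are not given in the labels. The labels do not name culture for single samples: the colony libraries are known from the numbers 0 and 200 in their titles, from the label of the agonists and from the design text of the series. By the study's methods, cells had been sorted as negative for the blood and endothelial markers CD45, TER119 and CD31, and as CD24-positive with high CD29, and colonies were grown in a basement membrane gel with EGF, insulin, transferrin and selenium.

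The mammary duct is a bilayer, with luminal cells that make milk inside and basal cells outside. Basal cells in the gland contract to eject milk, rest on a basement membrane, and include cells with stem cell activity. Isolation and culture are known to change gene expression in many epithelia, since sorting takes hours, enzymes remove the matrix, and growth factors replace signals from the tissue.

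Expression was given as FPKM, fragment counts scaled to transcript length and library size, for 17630 genes. The sorted libraries, control and 6-OHDA, summed to 508071 and 517504 FPKM and listed 16261 and 16371 genes above 0. The colonies, control and SP, summed to 577631 and 588202, with 15934 and 15756 genes above 0. From the steps between low values of genes with a single transcript, 1 FPKM on 1 kilobase stood for about 17.0 fragments in the sorted control library and 17.6 in the control colonies when fragments of 250 bases were assumed. Assumed lengths of 150 and 300 bases gave 15.4 and 18.1 for the sorted cells and 16.2 and 18.5 for the colonies, so the 2 libraries were of like depth by this rough estimate, which gives no interval for single genes. Differences are given as log2(FPKM + 1) in the control colonies minus that in the sorted control cells, which understates the change of genes with low values. With 1 library a side no difference was tested, no replicate spread was known, and culture cannot be told apart from the experiment that each library came from. A gene is called higher or lower here when this difference is above 1 or below -1. Where 4 values are given, the sorted pair is in the order control and 6-OHDA and the colony pair in the order control and SP; the treated libraries are shown as values and are not replicates.

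The defining keratins of basal cells were abundant in every library. Krt14 was at 3595 and 2633 FPKM in the sorted libraries and 3298 and 6919.9 in the colonies, and Krt5 at 1002 and 869 FPKM in the sorted libraries and 1888 and 4579 in the colonies. Acta2, the smooth muscle actin of contractile basal cells, was at 1949 and 2575 FPKM in the sorted libraries and 402 and 722 in the colonies. The luminal keratin Krt8 was present as well, at 559.93 and 545 FPKM in the sorted libraries and 698 and 683 in the colonies. By these keratins both kinds of library carried their basal label, but the sorted libraries also held transcripts of a gene that was used to gate cells out. Pecam1, which encodes the CD31 used as a negative gate, was at 107 and 93.03 FPKM in the sorted libraries and 1.39 and 1.56 in the colonies. Cdh5, the cadherin of endothelial junctions, was at 77.9 and 69.4 FPKM in the sorted libraries and 0.12 and 0.12 in the colonies. Ptprc, which encodes CD45, was at or below 0.77 FPKM in all 4 libraries.

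Of 16 endothelial markers, all in the files, 15 passed the filter described below, and 14 of them were lower in the control colonies and 0 higher (median -3.92 against 0.45 over all genes). Their summed level was 462 FPKM in each of the sorted libraries, against 23.1 and 17.5 in control and SP colonies. Pecam1 led the list in both sorted libraries, and Erg, at 10.3 FPKM, led it in the control colonies. No marker was listed at 0 in the control colonies, but Kdr, the VEGF receptor, was at 0.03, Vwf, the clotting factor stored in endothelium, at 0.07, and Cldn5, a tight junction protein of vessels, at 0.10. In bulk RNA, fewer cells of a type and less RNA per cell cannot be told apart. Several of the genes with the largest negative differences described below are known from endothelium, and the part of these cells in the results was not tested.

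Markers of other cell types were read in the same way. Of 18 fibroblast markers, 14 passed the filter, 9 were lower and 2 higher in the colonies (median -1.53), and their summed level was 984 and 1201 FPKM in the sorted libraries and 2450.0 and 1062 in the colonies. That sum was mostly Postn, a matricellular protein, at 702 and 688 FPKM in the sorted libraries and 2376 and 1004 in the colonies. The small matrix proteoglycan Dcn went the other way, at 115 and 135 FPKM in the sorted libraries and 1.52 and 1.11 in the colonies. The collagen genes Col1a1, Col1a2 and Col3a1 were at 14.01, 21.4 and 18.3 FPKM in the sorted control library and at 4.35, 20.6 and 2.33 in the control colonies. Of 10 pericyte and smooth muscle markers, 8 passed, with 6 lower and 1 higher (median -1.90), and sums of 736 and 669 FPKM against 170 and 154. Myh11, a smooth muscle myosin that basal cells also express, was the most abundant of these in the sorted cells, and Rgs5, a marker of pericytes proper, was at 19.2 and 27.1 FPKM in the sorted libraries and 0.10 and 0.14 in the colonies. Kcnj8, a potassium channel of pericytes, was listed at 0 in both colony libraries.

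Leukocyte markers summed to 19.5 FPKM over 20 genes in the sorted control library and to 4.06 in the control colonies, led by the lysosomal protein Cd68 in both, and 14 of the 20 were listed at 0 in the control colonies, the pan-leukocyte Ptprc and the T cell gene Cd3e among them. They summed to 17.8 in the 6-OHDA and 5.24 in the SP library, and of 3 that passed the filter 2 were lower in the control colonies and 0 higher (median -1.24). Adipocyte markers summed to 252 and 412 FPKM in the sorted libraries and to 67.5 and 20 in the colonies, and 1 of 3 that passed was lower and 0 higher (median -0.77). Fabp4, a fatty acid carrier of fat cells and capillaries, made up most of this at 210.21 and 374 FPKM in the sorted libraries and 34.4 and 1.05 in the colonies, whereas the fat cell hormone Adipoq was at 0.18 in the sorted control cells and 1.66 in the control colonies. Schwann cell and nerve markers summed to 86 and 100 against 26.3 and 45.5, with 2 of 5 lower and 1 higher (median -0.66). Sox10, a neural crest factor that is also known from mammary epithelium, led them in the sorted cells at 50.6 and 61.9 FPKM in the sorted libraries and 6.99 and 7.19 in the colonies. Th, the enzyme that makes catecholamines in sympathetic nerves, was listed at 0 in the sorted control library and in both colony libraries. Skeletal muscle markers summed to 3.39 and 10.7 against 24.9 and 43, with Acta1, skeletal actin, at 19.9 in the control colonies and Pax7, the factor of muscle stem cells, at 0 there; of 3 that passed, 1 was higher and 0 lower (median 0.49). Erythroid markers did not pass the filter, and summed to 1.51 and 9.31 against 0.51 and 0.28, with the globins Hba-a1 and Hbb-bs at 0 in both colony libraries. Of 12 salivary gland secretory genes, 1 passed and was not called (median -0.16), with sums of 2.44 in the sorted control cells, 1.34 and 1.67 in colonies, and 15593 in the 6-OHDA library, which is not part of the comparison. The part of these cell types in the results was not tested.

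Genes with a mean of at least 1 FPKM over the control pair numbered 12244. Of these, 3761 (30.7%) were higher in the control colonies and 1619 (13.2%) were lower, so 69.9% of the called genes were higher. The median difference over all compared genes was 0.45, and its lowest and highest deciles were -1.32 and 1.81. A fold of this kind depends on how the libraries are scaled to each other. After scaling by the median ratio of the compared genes, 2169 genes (17.7%) were higher and 2549 (20.8%) lower, so that the share of higher calls was 46.0%, with quantile normalization it was 52.4%, and with both libraries scaled to the same sum 61.7%. Which direction was the more frequent was thus set by the scaling. The median of all genes was 0.29 after scaling to the same sum, 0.13 with quantile normalization and 0 to 2 decimals with the median ratio. Each list below is therefore read against 0.45, the median of all genes.

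The treated libraries of each kind held the same order for nearly all called genes. Both colony libraries were above both sorted libraries for 6911 of all compared genes (56.4%) and below both for 3627 (29.6%). Among the called genes this was so for 3730 of the 3761 higher genes and for 1588 of the 1619 lower ones. Since the comparison that called them enters this count, it is no independent support.

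**Figure D1:**
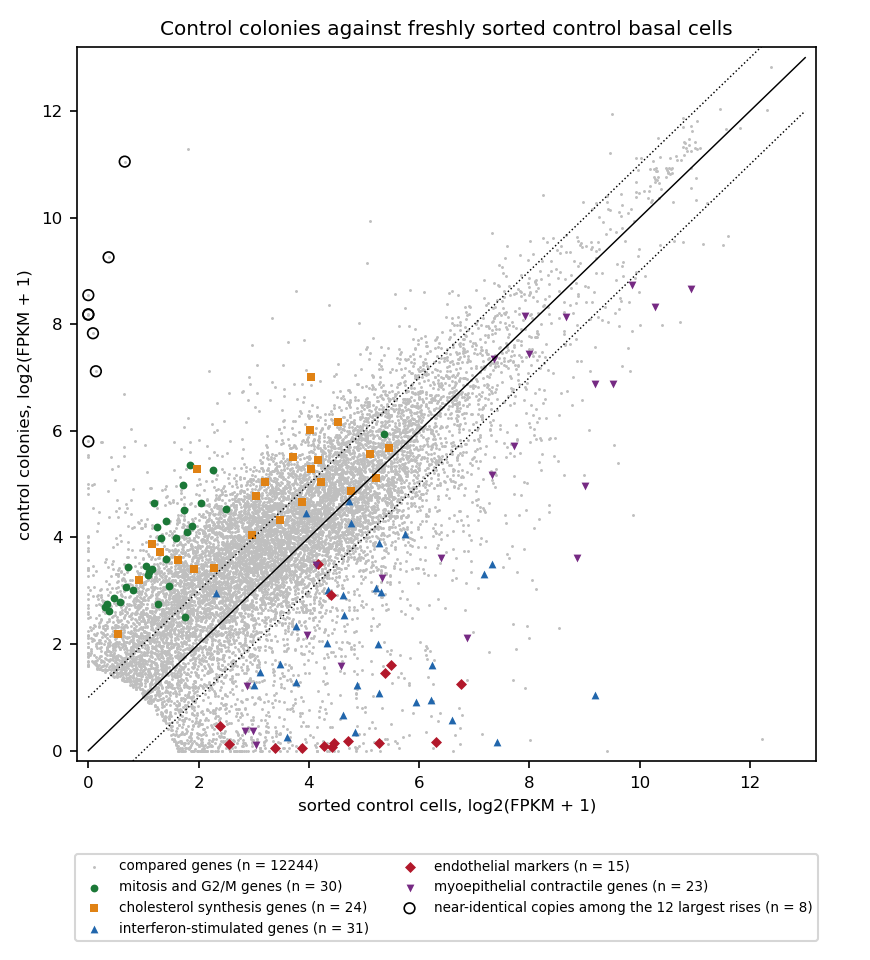
Expression in the control colonies (vertical axis) against the sorted control cells (horizontal axis), both as log2(FPKM + 1), with 1 library a side. Each grey point is 1 of 12244 compared genes, coloured symbols are members of 5 gene lists, and open circles are 8 near-identical copies of other genes among the 12 largest rises; all 30 mitosis genes lie above the solid line of equal values, all 15 endothelial markers below it, and dotted lines mark differences of 1 and -1.

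Among the 12 genes with the largest positive difference and a mean of at least 5 FPKM, 8 had a transcript that matched the transcript of another gene at 95% identity or more over at least 50% of its length, so their reads may be shared with that gene and their values are uncertain. The largest difference was that of Rpl34-ps1 (NCBI Gene 619547, chr6:71124589-71125001 in GRCm38.p6), a copy of the ribosomal protein gene Rpl34 with 99.4% identity over 354 bases. It was at 0.58 and 0 FPKM in the sorted libraries and 2119 and 2065 in the colonies, while Rpl34 itself (chr3:130726827-130730398) was at 905 and 957 FPKM in the sorted libraries and 138 and 150.07 in the colonies. Summed over both genes the values were 905 and 957 FPKM in the sorted libraries and 2258 and 2215 in the colonies. Gm4737 (chr16:46152985-46155077) stood in the same relation to Ahcy (chr2:155059310-155074497), which encodes the enzyme that clears S-adenosylhomocysteine. The copy was at 0.10 and 0 FPKM in the sorted libraries and 138 and 149 in the colonies, Ahcy at 49.4 and 51.5 FPKM in the sorted libraries and 2.49 and 1.96 in the colonies, and the pair summed to 49.5 and 51.5 FPKM in the sorted libraries and to 140.4 and 150.6 in the colonies. In both pairs the copy was near 0 in the sorted libraries and held most of the signal in the colonies. Rpl34, Ahcy and the partners named next were chosen after their values were seen, for their match to the copies.

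For 6 other copies the partner stayed the more abundant gene of the pair in both colony libraries. Eno1b, a copy of the enolase gene Eno1, was listed at 0 in both sorted libraries and at 373 and 690.31 FPKM in the colonies, while Eno1 was itself higher, at 179.70 and 242 FPKM in the sorted libraries and 538 and 1029.7 in the colonies. Gm10029 and Gm11703, at 0 FPKM in sorted control cells, stood at 290.35 and 289 in the control colonies, and their partners, the ribosomal protein genes Rpl35a and Rpl21, were at 1135 and 323 against 1318 and 321. Gm6139 and Gm45855, which match Rps2, were at 610.36 and 227 in the control colonies and at 0.29 and 0.06 in the sorted control cells. Rps2 was somewhat lower in the colonies and not called, at 2084 and 2049 FPKM in the sorted libraries and 1715 and 1697 in the colonies (-0.28). The control values of Rps2 and Gm45855 summed to 2084 in sorted cells and 1941 in colonies. Those of Rps2 and Gm6139 summed to 2084 and 2325. Tma7-ps, a copy of the translation factor gene Tma7, was listed at 0 in both sorted libraries and at 54.8 and 57.1 in the colonies. Tma7 was at 117 and 137 FPKM in the sorted libraries and 157 and 190 in the colonies. All 8 copies were below 1 FPKM in both sorted libraries and above 20 in both colony libraries, so the difference followed the experiment in all 4 libraries. Whether it came from the cells or from how reads were assigned in each experiment was not tested.

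The 4 other genes of these 12 had no such partner. Spp1, which encodes the secreted phosphoprotein osteopontin, was at 2.48 and 5.63 FPKM in the sorted libraries and 2495 and 1603 in the colonies (log2 difference 9.49). Aass, the first enzyme of lysine breakdown, was at 0.57 and 0.63 FPKM in the sorted libraries and 102 and 56.1 in the colonies (6.04). Cyp26a1, which degrades retinoic acid, was at 0.17 and 0.05 FPKM in the sorted libraries and 54.3 and 11.7 in the colonies (5.56). Spp1, Aass and Cyp26a1 were higher in both colony libraries than in either sorted one. Saa3, an acute-phase serum amyloid, was listed at 0 in the sorted control cells and at 45.8 in the control colonies, with 6.14 and 9.32 in the 6-OHDA and SP libraries.

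The 12 largest negative differences were led by genes known from vessels and inflamed tissue. Glycam1 (NCBI Gene 14663), a mucin-like protein of milk and of the high endothelial venules of lymph nodes, was at 4729.5 and 2171 FPKM in the sorted libraries and 0.16 and 0 in the colonies (-11.99). Ccl21a, a chemokine of the same venules and of lymphatic vessels, was at 678 and 298 in the sorted libraries and listed at 0 in both colony libraries; its transcript matched that of Ccl21d at 99.3% identity, so its value is uncertain. Chosen after the values were seen, the venule genes Madcam1 and Chst4 were at 5.40 and 2.97 FPKM in the sorted control cells and also listed at 0 in both colony libraries. Selp, an adhesion protein of activated endothelium and platelets, was at 256 and 229 FPKM in the sorted libraries and 0.15 and 0.02 in the colonies (-7.80). Plvap, a protein of endothelial fenestrae, was at 106 and 99.9 FPKM in the sorted libraries and 0.34 and 0.27 in the colonies (-6.32), and Lyve1, a hyaluronan receptor of lymphatic vessels, at 99.5 and 75.9 FPKM in the sorted libraries and 0.23 and 0.56 in the colonies (-6.35). Selp, Plvap and Lyve1 were below 1 FPKM in both colony libraries, as were most but not all endothelial markers: 11 of 16 were below 1 in the control colonies. Ackr1, a chemokine-binding receptor of venules, was at 96.7 and 95 in the sorted libraries and listed at 0 in the colonies. The water channel Aqp1 was at 106 and 135 FPKM in the sorted libraries and 0.09 and 0.15 in the colonies (-6.62), and elastin, Eln, at 207 and 171 FPKM in the sorted libraries and 1.5 and 1.42 in the colonies (-6.38). The remaining 4 were the chemokine gene Cxcl10, the antiviral gene Rsad2, the cytokine gene Il6 and the AP-1 gene Fosl1, which are described with their groups.

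Genes of cell division were higher in the colonies. All 30 genes of mitosis and G2/M passed the filter, 28 were higher, 0 lower, and their median difference was 2.38 against 0.45 over all genes; after median ratio scaling it was 2.01 and the count of 28 did not change. Mki67, the proliferation antigen Ki-67, was at 2.31 and 6.70 FPKM in the sorted libraries and 21.8 and 33.9 in the colonies (2.78). Ccnb1, the mitotic cyclin B1, was at 1.28 and 3.84 FPKM in the sorted libraries and 23.9 and 42.95 in the colonies (3.45), and Top2a, which untangles chromosomes, at 2.59 and 9.68 FPKM in the sorted libraries and 39.99 and 70.9 in the colonies (3.51). For all 30 genes both colony libraries were above both sorted libraries, and the 3 named here were lowest in the sorted control cells. Of 30 genes of G1/S and DNA replication, 23 were higher and 0 lower, with a median of 1.44. The helicase subunit Mcm5 was at 3.08 and 6.68 FPKM in the sorted libraries and 23.8 and 32.5 in the colonies (2.60) and the methylation-linked factor Uhrf1 at 2.67 and 5.70 FPKM in the sorted libraries and 16.5 and 27.6 in the colonies (2.26). Pcna, the sliding clamp of DNA polymerase, was the most abundant member and did not follow, at 232 and 222 FPKM in the sorted libraries and 157 and 182 in the colonies (-0.56).

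Drivers and inhibitors of G1 were both among the higher genes. Of 13 genes for D cyclins, CDK4/6 and CDK inhibitors, 8 were higher and 2 lower (median 1.37). After median ratio scaling 5 were higher and 2 lower (median 0.88). Cyclin D1, Ccnd1, was at 40.3 and 30.9 FPKM in the sorted libraries and 171 and 288 in the colonies (2.06), and its partner kinases Cdk4 and Cdk6 were at 55.6 and 68.5 against 251 and 219.81 and at 1.27 and 1.80 against 8.31 and 7.57 FPKM. Of the INK4 inhibitors of those kinases, 2 were below 1 FPKM in the sorted cells: Cdkn2a, which encodes p16 and ARF, was at 0.34 and 0.36 FPKM in the sorted libraries and 37.99 and 45 in the colonies (4.86), and Cdkn2b at 0.80 and 0.78 FPKM in the sorted libraries and 55.2 and 41.2 in the colonies (4.96). The CIP/KIP inhibitors Cdkn1a and Cdkn1c were lower instead, at 259.75 and 245 against 88.05 and 95.9 and at 4.44 and 6.34 against 0.20 and 0.16 FPKM. The files thus held more of cyclin D1, of its kinases and of Cdkn2a and Cdkn2b in colonies, and less of Cdkn1a and Cdkn1c.

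All 18 basal keratin and identity genes passed, 3 were higher and 5 lower, with a median of -0.10 against 0.45 over all genes; it was 0.02 between the treated libraries. With the median ratio the counts were 0 and 8. Krt14 differed by -0.12 and Krt5 by 0.91, and the basal master factor Trp63 was at 42.8 and 52.6 FPKM in the sorted libraries and 46.5 and 80.9 in the colonies (0.12). Krt17, a keratin of stressed and basal epithelium, was at 2266 and 1643 FPKM in the sorted libraries and 725 and 1882 in the colonies (-1.64), with the SP colonies between the sorted libraries. Krt15, a keratin of epithelial progenitors, was at 175 and 137 FPKM in the sorted libraries and 68.2 and 95.5 in the colonies (-1.34). Nrg1, an ErbB ligand that basal cells give to luminal cells, was at 57.4 and 80.6 FPKM in the sorted libraries and 4.60 and 15.02 in the colonies (-3.38), and the neurotrophin receptor Ngfr at 6.95 and 7.03 in the sorted libraries and at 0 in both colony libraries. Itgb4, the integrin of hemidesmosomes, was higher, at 47.3 and 49.5 FPKM in the sorted libraries and 113 and 176 in the colonies (1.23), but not called with the median ratio (0.73). Genes of the sort, Cd24a and Itgb1 (CD29), were at 312 and 285 against 355 and 359 and 328 and 394 against 368 and 424 FPKM and were not called.

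Of 21 compared basal transcription factors, 5 were higher and 8 lower (median -0.78). Lower ones included the mesenchymal factors Zeb1, at 5.36 and 6.89 FPKM in the sorted libraries and 0.29 and 0.12 in the colonies (-2.30), and Zeb2, at 3.79 and 3.10 FPKM in the sorted libraries and 0.24 and 0.08 in the colonies (-1.95), which are also known from stroma and vessels. Nfib, a nuclear factor I gene, was higher at 22.6 and 29.02 FPKM in the sorted libraries and 66.7 and 42.03 in the colonies (1.52), as was the homeobox gene Meis1 at 1.42 and 1.88 FPKM in the sorted libraries and 9.30 and 7.78 in the colonies (2.09). Runx1, the most abundant of these factors in all but the SP colonies, was at 157 and 123 FPKM in the sorted libraries and 90.8 and 75.6 in the colonies, a difference of -0.78.

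The contractile program of the myoepithelium was mostly lower. Of 23 compared contractile genes, 18 were lower and 0 higher, with a median of -2.15, and -2.64 after median ratio scaling. Acta2 differed by -2.27. Smooth muscle myosin, Myh11, was at 467 and 449 FPKM in the sorted libraries and 11.2 and 21.4 in the colonies (-5.26). Mylk, the kinase that switches this myosin on, was at 116 and 127 FPKM in the sorted libraries and 3.33 and 4.18 in the colonies (-4.76), and the actin-binding calponin Cnn1 at 515 and 537 FPKM in the sorted libraries and 30.4 and 61.8 in the colonies (-4.04). Myosin, its kinase and calponin were thus more than 4 log2 units lower, whereas Tagln and Tpm1, abundant actin-binding proteins of the same cells, differed by -1.95 and -1.14. Both colony libraries were below both sorted libraries for 21 of the 23. Myh11 and Des are shared with the pericyte list, which was lower too, and the part of vessel wall cells was not tested.

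Of 27 luminal identity genes, 14 were higher (51.9%, against 30.7% of all compared genes) and 3 lower (11.1%, against 13.2%), with a median of 1.36. The ETS factors Elf5, which drives the milk-forming lineage, and Ehf were at 0.63 and 1.02 against 22.5 and 18.1 and at 2.59 and 6.26 against 47.5 and 51.8 FPKM (3.85 and 3.76). Wfdc18, a secreted protease inhibitor of luminal cells, was at 32.3 and 42.8 FPKM in the sorted libraries and 567 and 444 in the colonies (4.09), and the tetraspanin Tspan8 at 10.6 and 11.03 FPKM in the sorted libraries and 150 and 67.1 in the colonies (3.70). The luminal keratin Krt8 differed by 0.32, and Lcn2, an iron-binding secreted protein and the most abundant member in sorted cells, by 0.15. Of 13 milk protein genes in the files, 8 passed, 4 were higher and 2 lower (median 0.89). The counts became 3 and 3 with the median ratio. The casein Csn1s1 was at 0.05 and 0.10 FPKM in the sorted libraries and 30.8 and 89.8 in the colonies (4.92) and Btn1a1, a protein of milk fat globules, at 0.74 and 0.64 FPKM in the sorted libraries and 17.2 and 7.46 in the colonies (3.38). Csn3, another casein, was lower, at 38.4 and 104 FPKM in the sorted libraries and 6.41 and 19.02 in the colonies (-2.41), so caseins did not share a direction. The other lower gene of this list is Glycam1, its most abundant member in the sorted control cells, given above among the largest negative differences (-11.99).

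Genes of squamous differentiation stood out among the higher lists. Of 33 in the files, 17 passed, 11 were higher and 3 lower, with a median of 1.94. Krt6a, a keratin of wounded epidermis, was at 29.2 and 29.9 FPKM in the sorted libraries and 260.25 and 2198 in the colonies (3.11), and its closely related neighbour Krt6b at 0.12 and 0.25 FPKM in the sorted libraries and 16.5 and 214 in the colonies (3.96), so the division of reads between them is uncertain. The secreted epidermal proteins Dmkn, Sbsn and Krtdap were at 9.50 and 12.5 against 112 and 458, at 3.85 and 3.30 against 47.9 and 142 and at 1.21 and 1.79 against 29.5 and 528 FPKM. In each of these 5 genes the SP colonies were above the control colonies. Krt16, the usual partner of Krt6a, differed by -0.60, at 67.2 and 55.1 FPKM in the sorted libraries and 44.1 and 434 in the colonies. Many genes of the cornified layer were near 0: 16 of the 33 did not reach a mean of 1 FPKM. Of 18 epithelial antimicrobial genes, 11 passed, 6 were higher and 3 lower (median 1.68). S100a8, a calcium-binding alarmin, was listed at 0 in the sorted control cells and at 30.9 and 125 FPKM in the colonies, and the protease inhibitor Slpi was at 725 and 493 FPKM in the sorted libraries and 3919.5 and 2024 in the colonies (2.43). Ltf, which encodes lactoferrin, was at 21.4 and 16.6 FPKM in the sorted libraries and 3.13 and 19.8 in the colonies (-2.44), with the SP colonies between the sorted libraries.

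Immediate-early genes, which are transcribed within minutes of a stimulus and are known to respond to tissue dissociation, were higher in the sorted cells. Of 28 such genes, 22 were lower and 0 higher in colonies, with a median of -2.44 and -2.94 after median ratio scaling. Fosl1, a subunit of the AP-1 factor, was at 240.34 and 196 FPKM in the sorted libraries and 1.27 and 5.14 in the colonies (-6.73). Egr1, a zinc finger factor, was at 507 and 394 FPKM in the sorted libraries and 34.9 and 28.5 in the colonies (-3.82), and the orphan receptor Nr4a3 at 57.97 and 56 FPKM in the sorted libraries and 0.63 and 0.84 in the colonies (-5.18). The 2 most abundant members in the sorted cells differed less: Fos was at 809 and 666 FPKM in the sorted libraries and 347 and 171 in the colonies (-1.22) and Junb at 801 and 619 FPKM in the sorted libraries and 359 and 222 in the colonies (-1.15). Both colony libraries were below both sorted libraries for 25 of the 28. Maff, a small MAF factor, was at 248 and 205 FPKM in the sorted libraries and 4.03 and 8.36 in the colonies (-5.63).

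Of 15 heat shock genes, 7 were lower and 2 higher (median -0.99). Bag3, a co-chaperone, was at 238 and 178 FPKM in the sorted libraries and 31.9 and 30.9 in the colonies (-2.86), and the inducible HSP70 gene Hspa1a at 154 and 103 FPKM in the sorted libraries and 35.9 and 42.5 in the colonies (-2.07); Hspa1a and Hspa1b are near-identical, so their values are uncertain. Cryab, a small heat shock protein, was higher at 38.3 and 46.6 FPKM in the sorted libraries and 128 and 87.3 in the colonies (1.72). Ribosome biogenesis genes were lower as well, 14 of 25 with 0 higher (median -1.01). Myc, the factor that drives this program, was at 204 and 181 FPKM in the sorted libraries and 13.3 and 21.6 in the colonies (-3.85), and the nucleolar protein Nolc1 at 129 and 102 FPKM in the sorted libraries and 28.2 and 30.2 in the colonies (-2.16). By contrast, 0 of 30 cytosolic ribosomal protein genes were called, and their median of 0.44, beside 0.45 for all genes, changed sign to -0.07 with the median ratio.

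**Figure D2:**
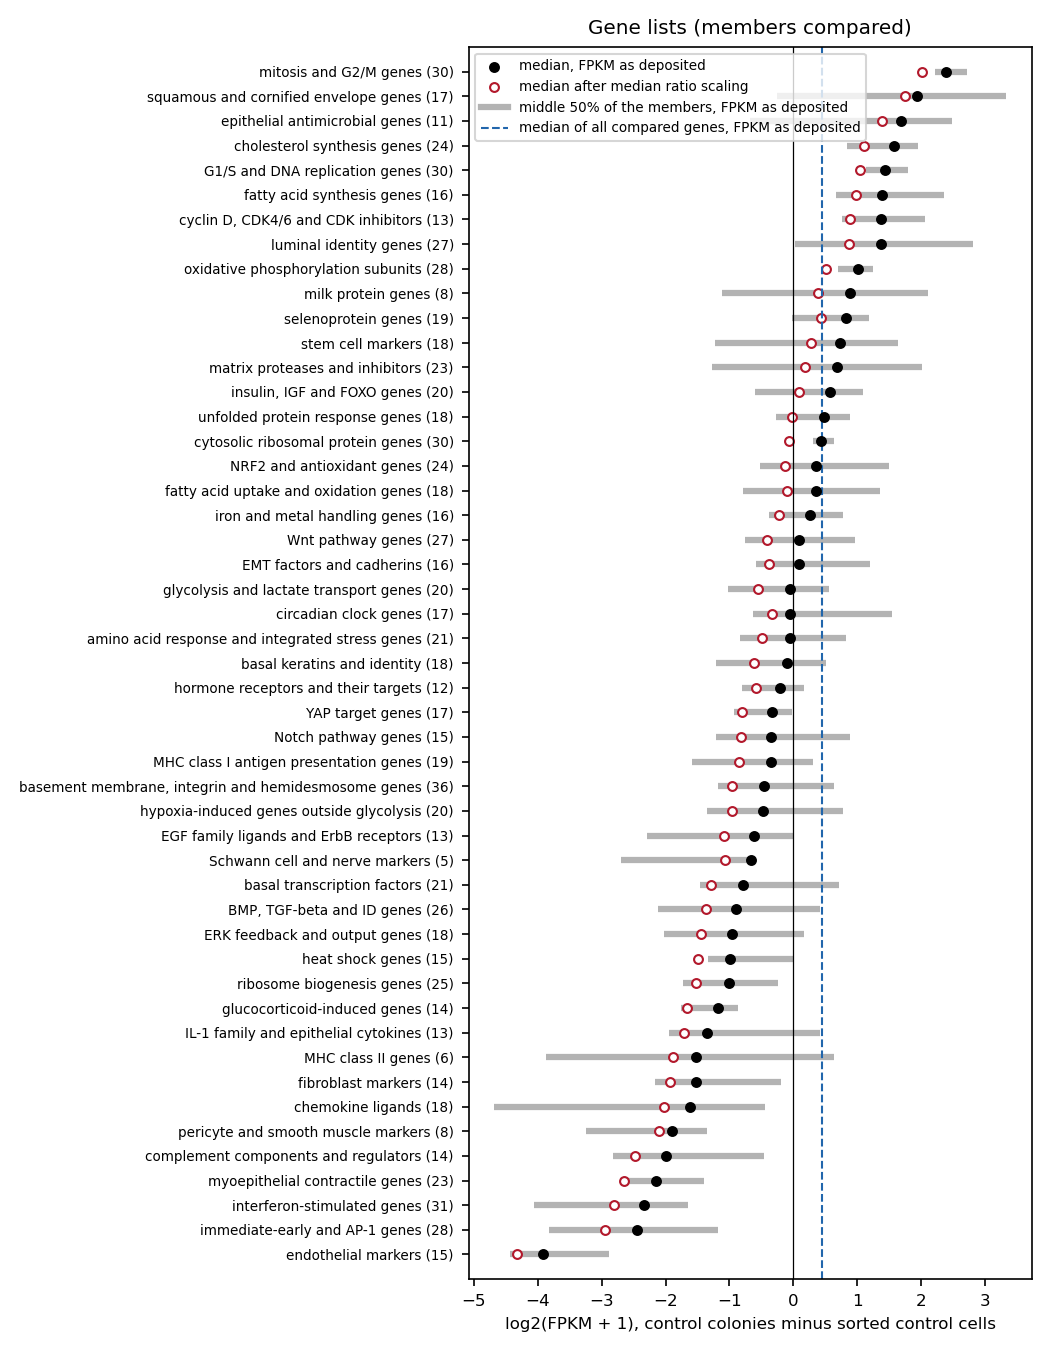
Median log2 difference, control colonies minus sorted control cells, for each gene list with at least 5 compared members (number in brackets), with black points for values as deposited, open red circles for median ratio scaling and grey bars for the middle 50% of members. The dashed line is the median of all compared genes, 0.45, and with 1 library a side mitosis genes lie highest at 2.38 and endothelial markers lowest at -3.92.

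Lipid synthesis was among the metabolic groups that were higher in the colonies. Of 24 cholesterol synthesis genes, 17 were higher and 0 lower, with a median of 1.57, and 1.11 after median ratio scaling. Nsdhl, a sterol dehydrogenase, was at 2.90 and 4.25 FPKM in the sorted libraries and 38.1 and 77 in the colonies (3.33), Fdps, which makes farnesyl diphosphate, at 15.3 and 17.3 FPKM in the sorted libraries and 128 and 244 in the colonies (2.99), and Hmgcs1, the first committed step of the pathway, at 22.1 and 27.96 FPKM in the sorted libraries and 71.1 and 192 in the colonies (1.64). In these 3 genes the SP colonies held the highest value. Sqle, squalene epoxidase, was the most abundant member of the sorted cells and was not called, at 42.7 and 39.5 FPKM in the sorted libraries and 50.4 and 85.5 in the colonies (0.23). Of 16 compared fatty acid synthesis genes, 10 were higher and 0 lower (median 1.39). The stearoyl-CoA desaturases Scd2 and Scd1 were at 9.07 and 13.7 against 278 and 441 and at 22.2 and 20.4 against 153 and 196 FPKM (4.79 and 2.73), the desaturases of polyunsaturated fat Fads1 and Fads2 differed by 2.36 and 2.44, and the factor Srebf1 was at 16.7 and 19.5 FPKM in the sorted libraries and 85.97 and 61.4 in the colonies (2.30). Each of these 5 was higher in both colony libraries.

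Of 28 subunits of oxidative phosphorylation, 15 were higher and 0 lower, with a median of 1.01, but only 3 were higher after median ratio scaling, where the median was 0.51. Atp5c1, a subunit of ATP synthase, was at 89.03 and 120.29 FPKM in the sorted libraries and 281 and 283 in the colonies (1.65). Fatty acid uptake and oxidation genes went both ways, 6 higher and 5 lower of 18 (33.3% and 27.8%, against 30.7% and 13.2% of all compared genes). Their median of 0.35 changed sign to -0.11 with the median ratio and was 0.01 between the treated libraries. Median ratio scaling gave counts of 4 and 5. The mitochondrial importer Cpt2 was at 1.45 and 1.29 FPKM in the sorted libraries and 12.5 and 11.3 in the colonies (2.46), while the fatty acid receptor Cd36, which capillary endothelium and fat cells also express, was at 24.3 and 41.6 FPKM in the sorted libraries and 2.42 and 0.07 in the colonies (-2.89) and Pdk4, which restrains glucose oxidation, at 69.1 and 65.8 FPKM in the sorted libraries and 2.48 and 0.98 in the colonies (-4.33).

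Glycolysis was not called as a group between the controls. Of 20 genes of glycolysis and lactate transport, 2 were higher and 5 lower, with a median of -0.05; between the treated libraries it was 1.22. Gapdh, often used as a reference gene, was at 1299 and 1144 FPKM in the sorted libraries and 1316 and 3177 in the colonies, a difference of 0.02 that changed sign to -0.49 with the median ratio. The regulators at the entry of the pathway were lower: the glucose transporter Slc2a1 was at 218 and 211 FPKM in the sorted libraries and 55.6 and 124 in the colonies (-1.95), hexokinase Hk2 at 19.1 and 21.9 FPKM in the sorted libraries and 2.53 and 4.93 in the colonies (-2.51), and Pfkfb3, which makes the activator of phosphofructokinase, at 43.4 and 39.7 FPKM in the sorted libraries and 2.51 and 3.15 in the colonies (-3.66). Slc16a3, an exporter of lactate, was at 5.74 and 9.82 FPKM in the sorted libraries and 0.55 and 59.7 in the colonies, lowest in the control colonies (-2.12) and highest in the SP colonies. Of 20 hypoxia-induced genes outside glycolysis, 5 were higher and 8 lower (median -0.47, and 0.34 between the treated libraries). After median ratio scaling 2 were higher and 10 lower. Vegfa, the growth factor of vessels, was at 198 and 192 FPKM in the sorted libraries and 11.2 and 42.04 in the colonies (-4.02), whereas the carbonic anhydrase Car12 was at 5.88 and 9.96 FPKM in the sorted libraries and 106 and 202 in the colonies (3.96).

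Of 24 NRF2 and antioxidant genes, 8 were higher (33.3%, against 30.7% of all compared genes), 5 lower (20.8%, against 13.2%) and 11 not called, with a median of 0.36 that became -0.13 with the median ratio. With the median ratio the counts were 5 and 6. The glutathione transferase Gsta4 was at 6.84 and 7.41 FPKM in the sorted libraries and 196 and 384 in the colonies (4.65) and the quinone reductase Nqo1 at 7.35 and 9.80 FPKM in the sorted libraries and 103 and 88.8 in the colonies (3.64). Hmox1, which degrades heme, was at 777 and 823 FPKM in the sorted libraries and 41.2 and 29.3 in the colonies (-4.20), Osgin1, an oxidative stress-induced gene, at 214 and 141 FPKM in the sorted libraries and 2.75 and 5.03 in the colonies (-5.84), and Srxn1, which repairs peroxiredoxins, at 65.7 and 61.6 FPKM in the sorted libraries and 9.56 and 13.1 in the colonies (-2.66). Among 19 selenoprotein genes, 7 were higher (36.8%, against 30.7% of all compared genes) and 4 lower (21.1%, against 13.2%). The median was 0.83, and 0.30 between the treated libraries. The counts became 3 and 4 with the median ratio. The epithelial glutathione peroxidase Gpx2 was at 4.04 and 10.9 FPKM in the sorted libraries and 90.8 and 133 in the colonies (4.19) and Gpx1 at 191 and 176 FPKM in the sorted libraries and 476 and 568 in the colonies (1.32, and 0.81 with the median ratio), while Txnrd1, a thioredoxin reductase, was at 293 and 261 FPKM in the sorted libraries and 55.9 and 46.7 in the colonies (-2.37). Of the 19 genes, 8 were not called. Of 16 iron and metal handling genes, 4 were higher and 2 lower, shares somewhat below the 30.7% and 13.2% of all compared genes. Their median of 0.26 became -0.23 with the median ratio. Median ratio scaling gave counts of 2 and 4. Trf, transferrin, was at 187 and 153 FPKM in the sorted libraries and 601 and 635 in the colonies (1.68), and the zinc-binding metallothioneins Mt1 and Mt2 differed by -0.88 and -1.24.

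Of 18 unfolded protein response genes, 4 were higher and 3 lower (22.2% and 16.7%, against 30.7% and 13.2% of all compared genes). Their median of 0.48 became -0.02 with the median ratio. With the median ratio the counts were 1 and 3. The chaperone Hspa5 was at 959 and 824 FPKM in the sorted libraries and 464 and 443 in the colonies (-1.05), its co-chaperone Dnajb9 at 123 and 122 FPKM in the sorted libraries and 24.5 and 20.3 in the colonies (-2.28), and the disulfide isomerase Pdia4 at 27.6 and 42.3 FPKM in the sorted libraries and 98.9 and 81.9 in the colonies (1.81). Of 21 amino acid response genes, 3 were higher and 4 lower (median -0.06, and 0.29 between the treated libraries). After median ratio scaling 2 were higher and 7 lower. Atf4, the factor of the integrated stress response, was at 583 and 563 FPKM in the sorted libraries and 190.28 and 208 in the colonies (-1.61), and Phgdh, the entry to serine synthesis, at 14.9 and 26.1 FPKM in the sorted libraries and 77.9 and 87.2 in the colonies (2.32).

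Matrix genes were compared because the colonies grew inside a gel of laminin and collagen IV, which is not read as RNA of the cells. Of 36 basement membrane, integrin and hemidesmosome genes, 11 were lower and 5 higher (median -0.46, and -0.07 between the treated libraries). After median ratio scaling 18 were lower and 4 higher. The collagen IV genes Col4a1 and Col4a2, 2 of 4 on the list, which endothelial and contractile cells also make, were at 327 and 373 against 23.5 and 22.4 and at 223 and 247 against 20.4 and 18.9 FPKM (-3.74 and -3.39), and Nid2, which links laminin to collagen IV, was at 8.25 and 8.96 FPKM in the sorted libraries and 0.14 and 0.05 in the colonies (-3.02). Fibronectin, Fn1, went the other way at 19.6 and 43.2 FPKM in the sorted libraries and 327 and 255 in the colonies (3.99), as did the integrin subunit Itgb8, at 5.76 and 7.46 FPKM in the sorted libraries and 33.4 and 24 in the colonies (2.35). Col4a1, Col4a2 and Nid2 were thus lower while Fn1 and Itgb8 were higher, and 20 of the 36 genes were not called on the values as deposited.

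Of 23 compared matrix proteases and inhibitors, 9 were higher and 7 lower (median 0.69). The collagenase Mmp13 was at 0.46 and 1.60 FPKM in the sorted libraries and 39.3 and 28.1 in the colonies (4.79) and the protease inhibitor Serpine2 at 12.2 and 19.6 FPKM in the sorted libraries and 117 and 65.9 in the colonies (3.16). The urokinase receptor Plaur was at 265 and 213 FPKM in the sorted libraries and 8.23 and 18.3 in the colonies (-4.85), tissue plasminogen activator, Plat, at 122 and 100.19 FPKM in the sorted libraries and 10.7 and 10.3 in the colonies (-3.39), and the aggrecanase Adamts4 at 122 and 104 FPKM in the sorted libraries and 9.22 and 5.90 in the colonies (-3.59). Collagenase was thus higher, and both genes of plasminogen activation were lower. EMT factors and cadherins had 6 higher and 3 lower of 16 (37.5% and 18.8%, against 30.7% and 13.2% of all compared genes). Their median of 0.09 changed sign with each scaling, to -0.38 with the median ratio. The counts became 3 and 5 with the median ratio. N-cadherin, Cdh2, was at 4.38 and 5.01 FPKM in the sorted libraries and 45.2 and 31.3 in the colonies (3.10), and the epithelial splicing factor Esrp2 at 6.79 and 6.83 FPKM in the sorted libraries and 28.04 and 30.9 in the colonies (1.90), while E-cadherin, Cdh1, differed by 0.46 and vimentin, Vim, by -0.77.

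The culture medium contains EGF. Of 13 compared EGF family ligands, ErbB receptors and regulators, 6 were lower, 2 higher and 5 not called (median -0.62). The ligand Hbegf was at 133 and 105 FPKM in the sorted libraries and 7.31 and 13.9 in the colonies (-4.01), Ereg at 23.8 and 33.5 FPKM in the sorted libraries and 4.04 and 9.13 in the colonies (-2.30), and Errfi1, a feedback inhibitor of the receptor, at 738 and 746 FPKM in the sorted libraries and 52.6 and 37.6 in the colonies (-3.79). The receptor Erbb3, usual in luminal cells, was higher at 4.37 and 5.39 FPKM in the sorted libraries and 25.2 and 20.4 in the colonies (2.29). Of 18 genes of ERK feedback and output, 9 were lower and 3 higher (median -0.95). The phosphatase Dusp5 was at 118 and 82.6 FPKM in the sorted libraries and 15.6 and 14.5 in the colonies (-2.84), Spry4, a Sprouty inhibitor, at 8.35 and 9.25 FPKM in the sorted libraries and 0.60 and 0.66 in the colonies (-2.55), and the ETS factor Etv4 at 8.60 and 12.6 FPKM in the sorted libraries and 45.5 and 37.5 in the colonies (2.28). Genes of this group did not share a direction. Among kinases of the cascade, Mapk3, which encodes ERK1, was at 25.6 and 30.4 FPKM in the sorted libraries and 108 and 103 in the colonies (2.03), and the MEK gene Map2k1 at 44.2 and 42.8 FPKM in the sorted libraries and 34.1 and 50.5 in the colonies (-0.36). Map2k2, the other MEK gene, was at 30.8 and 29.04 FPKM in the sorted libraries and 34.4 and 34.5 in the colonies, and its difference of 0.16 changed sign to -0.34 with the median ratio.

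Insulin is the other growth factor of the medium. Of 20 compared insulin, IGF and FOXO genes, 7 were higher and 4 lower, shares somewhat above the 30.7% and 13.2% of all compared genes. Their median was 0.57, and -0.06 between the treated libraries. Median ratio scaling gave counts of 2 and 6. Irs2, an adaptor of the insulin receptor, was at 77.02 and 64.2 FPKM in the sorted libraries and 8.87 and 7.73 in the colonies (-2.98), and Pik3ip1, an inhibitor of PI3 kinase, at 3.85 and 3.90 FPKM in the sorted libraries and 29.7 and 19.2 in the colonies (2.66). Igfbp5, the most abundant IGF-binding protein, was at 559.52 and 457 FPKM in the sorted libraries and 1142 and 431 in the colonies (1.03, and 0.52 with the median ratio), with the SP colonies below both sorted libraries.

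Among developmental pathways, Wnt genes had 7 higher and 6 lower of 27 (25.9% and 22.2%, against 30.7% and 13.2% of all compared genes), and a median of 0.09 that changed sign with each scaling, to -0.41 with the median ratio. With the median ratio the counts were 3 and 9. The target genes Axin2 and Nkd1 were lower, at 6.66 and 5.29 against 1.53 and 1.25 and 11.7 and 8.70 against 1.47 and 0.70 FPKM (-1.60 and -2.36), while the inhibitor Nkd2 was at 7.32 and 7.91 FPKM in the sorted libraries and 149 and 103 in the colonies (4.18) and the secreted antagonist Sfrp1 at 15.1 and 17.97 FPKM in the sorted libraries and 74.6 and 48.5 in the colonies (2.23). The ligand Wnt11 was at 138 and 88.4 FPKM in the sorted libraries and 14.96 and 21.03 in the colonies (-3.12). Of 15 compared Notch genes, 4 were higher and 5 lower (median -0.35). Nrarp and Hey1, targets of the pathway, were at 6.47 and 7.59 against 22.7 and 27.7 and 9.76 and 10.3 against 33.2 and 19.7 (1.67 and 1.67), and another target, Hes1, at 54.2 and 41.5 against 12.2 and 14.6 (-2.07). Dll4, the Notch ligand of endothelium, was at 10.6 and 11.2 FPKM in the sorted libraries and 0.38 and 0.07 in the colonies (-3.07). Axin2 and Nkd1 were thus lower while targets of Notch lay on both sides.

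Of 26 compared BMP, TGF-beta and ID genes, 11 were lower and 3 higher (median -0.90). Id3, an inhibitor of helix-loop-helix factors, was at 248 and 130.41 FPKM in the sorted libraries and 31.5 and 13.9 in the colonies (-2.94), and the TGF-beta target Tgfbi was at 34.9 and 20.4 FPKM in the sorted libraries and 1.05 and 1.97 in the colonies (-4.13). Inhba, which encodes an activin subunit, was higher at 1.65 and 4.39 FPKM in the sorted libraries and 25.9 and 27.1 in the colonies (3.35). Of 17 YAP targets and factors of the pathway, Yap1 itself among them, 4 were lower and 1 was higher (median -0.33). With the median ratio 7 were lower and 1 higher. The higher gene as deposited was Ankrd1, at 1.80 and 2.54 FPKM in the sorted libraries and 23.97 and 16.7 in the colonies (3.16). The matricellular genes Ccn1 and Ccn2 were at 254 and 250.46 against 412 and 166 and 193 and 278 against 241 and 102 FPKM, with the control colonies highest or second and the SP colonies lowest.

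Stem cell markers did not share a direction. Of 18 compared, 8 were higher and 5 lower (median 0.73), and after median ratio scaling 6 and 6 (median 0.28). The median between the treated libraries was 0.09. Procr (NCBI Gene 19124, chr2:155751125-155755478), the protein C receptor by which mammary stem cells have been sorted, was at 253 and 191 FPKM in the sorted libraries and 3.35 and 6.55 in the colonies (-5.87). Procr is also a protein of endothelium. Cdh5, at -6.14, stands on the stem cell list as well as on the endothelial one, and is among its 5 lower genes with Procr. Thbd, which acts with Procr in protein C activation and was chosen after its values were seen, was at 68.9 and 51.6 FPKM in the sorted libraries and 0.27 and 2.48 in the colonies (-5.78). How much of the Procr signal in sorted cells came from endothelial cells was not tested. Higher markers included Tspan8, at 3.70, and Prom1, which encodes CD133, at 1.97 and 1.74 FPKM in the sorted libraries and 12.7 and 15.9 in the colonies (2.21). The polycomb gene Bmi1 was at 6.71 and 9.05 FPKM in the sorted libraries and 31.97 and 24.3 in the colonies (2.10), Itgb3, a luminal progenitor integrin, at 4.47 and 7.66 FPKM in the sorted libraries and 19.1 and 10.2 in the colonies (1.88), and Bcl11b, a factor of quiescent basal cells, at 1.91 and 1.44 FPKM in the sorted libraries and 8.20 and 10.7 in the colonies (1.66). The R-spondin receptors Lgr5 and Lgr6 differed by 1.24 and 1.01, and by 0.75 and 0.53 with the median ratio, but their SP colonies lay at 17.7 and 14.5 FPKM, within or below the sorted values of 20.1 and 16.8 for Lgr5 and 14.9 and 16.9 for Lgr6. The Wnt target Axin2, the Notch ligand Dll1 and the surface protein Thy1, which is also on the fibroblast list, were the 3 other lower genes, with differences of -1.60, -1.33 and -2.44. Sox9, a progenitor factor, was at 39.1 and 42.7 FPKM in the sorted libraries and 37.9 and 46.1 in the colonies, a difference of -0.04.

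Adrenergic receptors bind the transmitter of sympathetic nerves, and 3 of 9 passed the filter, 0 higher and 1 lower (median -0.18). The α2 receptor Adra2a was at 1.34 and 0.94 FPKM in the sorted libraries and 1.07 and 0.55 in the colonies and the α1 receptor Adra1d at 0.91 and 0.82 FPKM in the sorted libraries and 1.49 and 0.67 in the colonies, and neither was called. The other α1 receptors, Adra1a and Adra1b, were at 0.03 and 0 FPKM in the control colonies.

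Interferon-stimulated genes were lower in the colonies. Of 31 compared, 27 were lower and 0 higher, with a median of -2.34 and -2.81 after median ratio scaling. Cxcl10, a chemokine for T cells, was at 584 and 84.1 FPKM in the sorted libraries and 1.06 and 0.46 in the colonies (-8.15). Rsad2, the antiviral enzyme viperin, was at 169 and 19.5 FPKM in the sorted libraries and 0.12 and 0.34 in the colonies (-7.25), and Ifit1, which binds foreign RNA, at 60.3 and 10.2 FPKM in the sorted libraries and 0.88 and 1.10 in the colonies (-5.03). The 6-OHDA library lay between the sorted control and the colonies in all 3 genes, and the median between the treated libraries was -1.60. Ifit3 was at 95.6 and 14.9 FPKM in the sorted libraries and 0.50 and 0.81 in the colonies (-6.01) and is near-identical to Ifit3b, so its value is uncertain. Both colony libraries were below both sorted libraries for 27 of the 31.

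Antigen presentation was partly lower. Of 19 MHC class I genes, 8 were lower and 2 higher (median -0.35, and 0.13 between the treated libraries). The heavy chain H2-K1 was at 893 and 534 FPKM in the sorted libraries and 343 and 322 in the colonies (-1.38), its light chain B2m at 995 and 794 FPKM in the sorted libraries and 618 and 553 in the colonies (-0.69), and Nlrc5, the factor that activates these genes, at 12.5 and 7.45 FPKM in the sorted libraries and 0.86 and 1.03 in the colonies (-2.86). H2-Q7 was at 38.1 and 18.6 in the sorted libraries and listed at 0 in both colony libraries; class I genes share long stretches of sequence, so their values are uncertain. Of 6 compared class II genes, 3 were lower and 1 higher (median -1.53, and -0.57 between the treated libraries). Cd74, the invariant chain, was at 72.96 and 19.5 FPKM in the sorted libraries and 0.58 and 0.37 in the colonies (-5.55), and H2-Eb1 at 8.09 and 3.38 FPKM in the sorted libraries and 0.08 and 0.12 in the colonies (-3.07), while H2-Ab1 was at 22.2 and 6.91 FPKM in the sorted libraries and 22.6 and 58.05 in the colonies, nearly level between the controls. In the sorted control library Cd74 was at 72.96 FPKM and the 20 leukocyte markers summed to 19.5. Levels of different genes do not give a share of cells, and the source of the class II transcripts was not tested.

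Secreted immune signals were lower in most cases. Of 18 compared chemokine ligands, 12 were lower and 1 higher (median -1.61). Cxcl14, an epithelial chemokine, was at 944 and 858 FPKM in the sorted libraries and 20.5 and 8.47 in the colonies (-5.46), Ccl2, which draws monocytes, at 217 and 121 FPKM in the sorted libraries and 9.23 and 6.46 in the colonies (-4.41), and Cxcl12 at 228 and 179 FPKM in the sorted libraries and 46.9 and 30.2 in the colonies (-2.25). Of 13 compared IL-1 family and epithelial cytokine genes, 7 were lower and 3 higher (median -1.35, and -0.32 between the treated libraries). Il6 was at 139 and 196 FPKM in the sorted libraries and 0.25 and 1.01 in the colonies (-6.81), and the growth factor of granulocytes Csf3 at 117 and 126 FPKM in the sorted libraries and 12.5 and 15.6 in the colonies (-3.13). The higher genes were Tnf, at 3.93 and 2.91 FPKM in the sorted libraries and 36.5 and 42.5 in the colonies (2.93), the IL-1 receptor antagonist Il1rn, at 2.03 and 0.98 FPKM in the sorted libraries and 24.04 and 28.9 in the colonies (3.05), and Il1a, at 0.56 and 0.24 FPKM in the sorted libraries and 9.01 and 34.2 in the colonies (2.68). Of 14 compared complement genes, 9 were lower and 1 higher (median -1.996, and -1.06 between the treated libraries). Factor B, Cfb, was at 87.6 and 47.8 FPKM in the sorted libraries and 5.37 and 2.01 in the colonies (-3.80). C3, the central component, was at 269 and 98.4 FPKM in the sorted libraries and 59.8 and 61.1 in the colonies (-2.15).

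Hormone receptors were close to level. Of 12 compared receptors and targets, 1 was higher and 2 lower (median -0.20, and 0.08 between the treated libraries). The progesterone receptor Pgr was at 1.76 and 1.90 FPKM in the sorted libraries and 5.02 and 3.36 in the colonies (1.13, and 0.75 with the median ratio), and Cish, a target of prolactin and STAT5, at 33.95 and 24.5 FPKM in the sorted libraries and 4.04 and 5.12 in the colonies (-2.79). Of 14 compared glucocorticoid-induced genes, 8 were lower and 0 higher, with a median of -1.18. The kinase Sgk1 was at 462 and 467 FPKM in the sorted libraries and 157 and 173 in the colonies (-1.55) and Angptl4, an inhibitor of lipoprotein lipase, at 253 and 245 FPKM in the sorted libraries and 70.3 and 49.02 in the colonies (-1.83). Both are also known to respond to other stimuli.

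Clock genes lay on both sides, 5 higher and 4 lower of 17 (median -0.05). These were 29.4% and 23.5%, against 30.7% and 13.2% of all compared genes. The counts became 5 and 5 with the median ratio. Dbp and Per3, outputs of the clock, were at 0.65 and 0.61 against 12.7 and 11.04 and 0.65 and 0.49 against 11.4 and 7.30 FPKM (3.06 and 2.91), and the repressor Nr1d2 at 16.8 and 20.3 FPKM in the sorted libraries and 50.6 and 34.3 in the colonies (1.54). Per2, Cry1 and Nfil3, which oppose them in phase or activity, were at 18.6 and 12.7 against 3.89 and 3.14, at 35.5 and 30.5 against 6.77 and 8.36 and at 131 and 96.6 against 23.3 and 22.7 (-2.01, -2.23 and -2.44). The hour at which each sample was lysed is not stated in the labels, and its part was not tested.

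**Figure D3:**
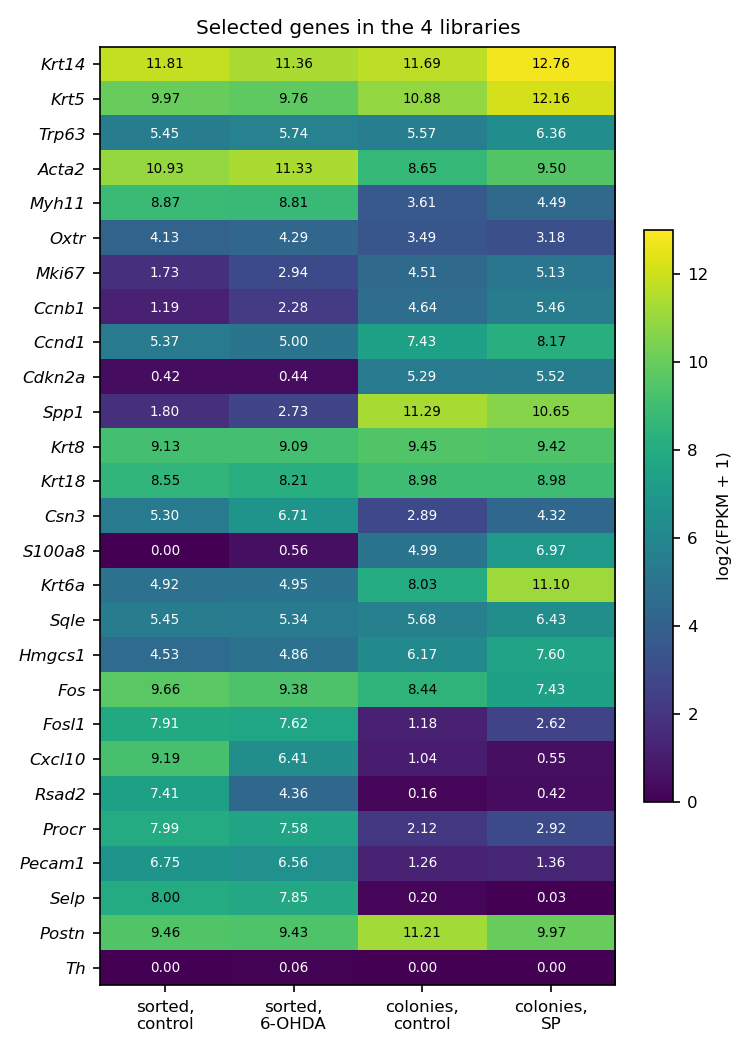
Level of 27 genes in the 4 libraries, as log2(FPKM + 1), each cell 1 library with its value printed and coloured on the scale at the right. The columns are the sorted control and sorted 6-OHDA libraries and the control and SP colonies; Krt14 is high in all 4, Myh11, Cxcl10 and Selp are high in the sorted libraries, and Spp1 and Cdkn2a in the colonies.

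Promoters of lists with a common direction were read for short motifs, with the 250 bases before the start of each gene taken from RefSeq (GRCm38.p6) and both strands searched. Motifs were chosen after the values were seen, and a match is a description of letters, not of a bound factor. The interferon response element was in 13 of 25 interferon-stimulated genes with a promoter (52.0%), against 2.73% of 9777 compared genes. The CCAAT box CCAAT was in 21 of 24 mitosis genes (87.5%), against 36.8%, and the cell cycle element TTTGAA in 8 of the 24 (33.3%), against 10.5%. In 23 immediate-early genes the cyclic AMP element TGACGTCA was found in 2 (8.7%), against 2.74%, and the CArG box in 1 (4.35%), against 1.22%. In 19 contractile genes the CArG box was found in 1 (5.26%). Searches in this window say nothing of elements farther away. The promoters of Rsad2 (chr12:26456453-26456702, minus strand) and Ifit1 (chr19:34640639-34640888, plus strand) are shown because these genes stand for the interferon list, with the interferon response elements in capitals, and that of Cdc20 (chr4:118437344-118437593, minus strand), which activates the anaphase-promoting complex, for its CCAAT boxes and cell cycle element, also in capitals. Cdc20 was at 4.66 and 4.74 FPKM in the sorted libraries and 22.2 and 38.1 in the colonies (2.03) and was chosen after its values were seen.
Rsad2: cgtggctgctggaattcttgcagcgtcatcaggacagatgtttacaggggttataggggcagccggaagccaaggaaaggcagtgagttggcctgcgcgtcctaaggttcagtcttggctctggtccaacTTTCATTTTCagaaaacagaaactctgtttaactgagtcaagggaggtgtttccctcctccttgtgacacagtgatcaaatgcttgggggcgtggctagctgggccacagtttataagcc
Ifit1: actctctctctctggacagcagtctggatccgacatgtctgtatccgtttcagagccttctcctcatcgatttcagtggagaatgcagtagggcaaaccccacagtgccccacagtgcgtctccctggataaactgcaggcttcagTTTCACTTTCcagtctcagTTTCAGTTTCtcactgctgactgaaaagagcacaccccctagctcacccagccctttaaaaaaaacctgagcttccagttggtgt
Cdc20: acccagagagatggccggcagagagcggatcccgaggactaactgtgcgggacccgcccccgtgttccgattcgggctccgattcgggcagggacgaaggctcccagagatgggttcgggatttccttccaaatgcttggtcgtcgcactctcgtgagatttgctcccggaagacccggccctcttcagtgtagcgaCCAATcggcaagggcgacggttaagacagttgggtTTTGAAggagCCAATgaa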

How the data were processed

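RNA-seq was analysed for 4 libraries, 1 per condition, of which the untreated pair was compared. The authors deposited FPKM values with 2 decimals for 17630 genes listed by NCBI Gene number. The submitters' processing notes name mm10, Bowtie2, RSEM 1.3.1 and DESeq2 1.4.5 without saying what each was used for. Reads were not analysed here, so depth was estimated only from the steps between low values.

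Tables were joined by gene number, and 17512 of 17630 numbers matched the RefSeq gene table of GRCm38.p6. Genes with a mean of at least 1 FPKM over the control pair were compared as log2(FPKM + 1), control colonies minus sorted control, and called above 1 or below -1. No test was possible with 1 library a side. Alternatives were pseudocounts of 0.1 and 5, no filter or a mean of at least 5, scaling to the same sum, to the median ratio or to quantiles, thresholds of 0.3 and 2, list means instead of medians, and the treated libraries of each kind. Leaving out predicted and pseudogene symbols, or markers of other cells, was added after seeing the data.

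The 55 gene lists held 1047 different genes, of which 12 were not found by symbol. The members and lists were chosen with earlier results of these data known. Named genes are the 12 with the largest difference each way among genes with a mean of at least 5 FPKM, per list the 6 with the largest difference and the 4 most abundant, and genes the study names; others are said in the text to be chosen after their values were seen. Near-identical copies were found with blastn 2.17.0 on GENCODE transcripts, and promoters were the 250 bases upstream of the first listed start of a gene in RefSeq. Comparison code was tested on simulated data. The code ran with pandas 2.3.3, numpy 2.4.6 and scipy 1.17.1 in Python 3.11.15, and matplotlib 3.10.9 drew the figures.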

Additional observations from a re-analysis of the deposited data

Results flagged for a closer look

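Between the untreated and the treated libraries of each kind, 7 genes were called in opposite directions, and these differences between pairs were not tested. The log2 difference of colonies minus sorted cells was -1.59 in the untreated and 3.63 in the treated pair for Ndufa4l2, a mitochondrial protein induced by hypoxia. It was -2.12 and 2.49 for the lactate exporter Slc16a3, -2.56 and 1.98 for the cytokine gene Il24, and -1.17 and 1.85 for Bst1, which encodes a surface enzyme. The membrane protein gene Tmem45a had -1.80 and 1.03, and Fam25c had -1.03 and 1.78. Ggh, a hydrolase of folates, was the 1 gene with the other order, 1.59 and -1.16. The treated libraries differ from the untreated ones by treatment as well, and the cause was not tested.

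In data that the comparison does not use, the sorted 6-OHDA library held a sum of 15593 FPKM over 12 salivary gland secretory genes, against 2.44 in the sorted control library. Bpifa2, a secreted salivary protein, was at 7277 FPKM there and listed at 0 in the sorted control library. The values of this library given in the report carry that signal in their sum.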

How the results depend on the processing

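The counts of called genes and their share depended on the processing. Against 3761 higher and 1619 lower genes, a pseudocount of 5 gave 2027 and 1019, a threshold of 0.3 gave 6817 and 3252, and a threshold of 2 gave 852 and 678, where the share of higher calls was 55.7% in place of 69.9%. These 3 settings change what is called by construction. Median ratio scaling gave 2169 and 2549 and reversed the share to 46.0%, and quantile normalization gave 2470 higher genes and 52.4%; the cause was not tested. Scaling to the same sum gave 61.7%, and the treated libraries 64.5%. Leaving out predicted and pseudogene symbols gave 3707 and 1597, and leaving out markers of other cells 3756 and 1586; both settings were chosen after seeing the data. The direction of the median of 47 of 54 lists was kept under all 3 scalings, and 7 changed sign. Of 22 lists with a median beyond 1 or -1, 7 stayed beyond it under every alternative. Among 201 named genes that were called, 171 kept their call under every setting that left the threshold at 1. With the median ratio Gpx1, Igfbp5, Itgb4, Lgr5, Lgr6 and Pgr were no longer called. With the treated libraries of each kind, 200 of these genes had a value and 5 had the other sign. The 5 were Igfbp5 -0.0827, Krt17 0.20, Lgr6 -0.21, Ltf 0.24 and Slc16a3 2.49, and the cause was not tested. Apart from Slc16a3, the genes flagged above for opposite calls in the untreated and treated pairs are not among the 201. No paired analysis was possible because each side holds 1 library. With 1 library a side, no spread between replicates is known, and culture, sorting, other cell types, batch and the hour of lysis cannot be told apart. Values come with 2 decimals and no counts, so genes near 0 have differences that rest on few fragments. Reads shared between near-identical genes could not be assigned again from FPKM.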

Other observations

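Histone genes were noticed after their values were seen and were on no list. Of 59 with a histone symbol, 23 were compared, 20 were higher in the control colonies and 0 lower, with a median of 1.85. They summed to 70.4 and 86.1 FPKM in the sorted libraries and to 912 and 548 in the colonies, and 30, 24, 4 and 7 of them were listed at 0. H1f2, a linker histone, was at 12.6 and 15.4 FPKM in the sorted libraries and 395 and 189 in the colonies. Most histone transcripts lack a poly(A) tail, and how the libraries treated them was not tested.

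Below 1 FPKM in both sorted libraries and above 20 in both colony libraries were 22 genes, 9 of them with predicted or pseudogene symbols, and 35 genes had the reverse pattern, 1 of them with such a symbol. Of 150 compared genes with such symbols, 54 were higher and 22 lower, and 11 differed by more than 4. Over all compared genes, 30.7% were higher and 13.2% lower.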
